A study of Mus musculus with 6 samples.

Results

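The genes examined here are 10 core parts of the Notch pathway, chosen by name: the receptors *Notch1*, *Notch2* and *Notch3*, the ligands *Dll1*, *Dll4*, *Jag1* and *Jag2*, the nuclear factor *Rbpj*, and the effectors *Hes1* and *Hey1*. All 10 were found among the 55414 genes of the count table, and all 10 were among the 16353 genes with enough counts to be tested. The libraries were made from mouse cells at E10.5, sorted by flow cytometry from the trunk region. WT cells carried *Pdx1-Cre*, Tdtomato and miR-302WT, and KO cells carried *Pdx1-Cre*, Tdtomato and miR-302KO, with 3 libraries of polyadenylated RNA for each genotype. Both genotypes therefore shared the Cre driver and the red reporter that it switches on. The parents were heterozygous for *mir-302* on both sides, so that KO embryos lacked the cluster throughout and not only in labelled cells. *Pdx1-Cre* marks all descendants of cells that expressed *Pdx1*, which include parts of the foregut beside the pancreas. The labels do not state whether the 3 libraries of a genotype came from separate embryos or litters, so the p-values measure only the spread between these libraries, which may be technical. By the labels, the library codes of WT replicate 2 and KO replicate 1 are alike except for the last letter, and what a code marks is not stated. Total counts were 17859163 to 21347945 a library in WT and 17352498 to 26634523 in KO. The 5 precursor genes of the *mir-302* cluster had 2 counts in all, which is too few to check the genotypes from this RNA.

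Notch receptors sit in the membrane and are cut when a Delta (*Dll*) or Jagged (*Jag*) ligand on a neighbouring cell binds and pulls on them. The freed intracellular part enters the nucleus, joins the DNA-binding protein RBPJ and turns on genes of the Hes and Hey families, which encode repressors. In the early pancreatic epithelium, Notch signalling is known for holding progenitors back from endocrine fate, largely through HES1, which represses the endocrine switch gene *Neurog3*.

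The sequences that link these genes to the deleted miRNAs and to their own pathway are shown before the values. The *mir-302* products recognise transcripts through the seed, bases 2 to 8 of the mature RNA, printed here in capitals from RefSeq (GRCm38.p6).
mmu-miR-302b-3p: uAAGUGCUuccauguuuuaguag
mmu-miR-302c-3p: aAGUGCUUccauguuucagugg
mmu-miR-302d-3p: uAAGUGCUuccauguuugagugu
The seed AAGUGCU was shared by miR-302b and miR-302d. The miR-302c entry started 1 base later in the same motif. The 7-base matches to the shared seed, AGCACTT and GCACTTA, were searched in the 3′UTR of 1 protein-coding transcript a gene. Matches to the shifted seed of miR-302c were not searched. The products of *Mir302a* and *Mir367*, also in the cluster, were neither printed nor searched, so the counts below hold for the shared seed only. They were found in 0 of the 10 members, beside 20.6% of the 13768 tested genes with a 3′UTR. The shorter match GCACTT was found in 3 of the 10 members and in 33.0% of those genes. The median 3′UTR was 1233 bases in the members and 1184 bases in the tested genes. The 3 short matches, in capitals with 8 bases on each side, lay at base 530 of the *Dll1* 3′UTR, base 1451 of the *Rbpj* 3′UTR and base 760 of the *Hey1* 3′UTR.
Dll1: gtacaaagGCACTTcgggtcta
Rbpj: ccatccctGCACTTtggttatt
Hey1: ccttgcctGCACTTggcagccc
A match of letters is a description of these transcripts and does not show that a miRNA acted there.

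Promoter windows from 250 bases before to 50 bases after an annotated start were found for 8 of the 10 members, in 10 windows, in a RefSeq table on GRCm38.p6. *Hes1* and *Hey1* had no entry. These windows were searched on both strands for the RBPJ motif GTGGGAA and for motifs bound by Hes and Hey proteins, the class C site CACGCG, the N box CACNAG and the E box CACGTG. No window held GTGGGAA or CACGTG, which occurred in 6.38% and 7.15% of 32851 promoters. CACGCG occurred in 5 of the 10 windows and in 9.27% of all promoters, and those 5 belonged to *Dll1*, *Dll4*, *Jag1*, *Jag2* and *Notch2*. CACNAG occurred in 5 of the 10 windows and in 42.5% of all promoters, in *Notch1*, *Notch2*, *Notch3*, *Dll1* and *Dll4*. The promoters of *Notch1*, *Notch2*, *Dll1* and *Jag2* are printed because these are the receptors and ligands with the smallest p-values below, and capitals mark CACGCG and CACNAG on either strand.
Notch1, chr2:26503773-26504072, minus strand: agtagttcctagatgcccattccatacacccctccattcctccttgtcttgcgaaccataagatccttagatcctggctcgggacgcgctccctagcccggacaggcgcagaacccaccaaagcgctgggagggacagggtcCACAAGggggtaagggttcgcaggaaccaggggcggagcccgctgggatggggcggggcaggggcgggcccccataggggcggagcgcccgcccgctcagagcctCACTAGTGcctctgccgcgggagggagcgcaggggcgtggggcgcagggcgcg
Notch2, chr3:98013288-98013587, plus strand: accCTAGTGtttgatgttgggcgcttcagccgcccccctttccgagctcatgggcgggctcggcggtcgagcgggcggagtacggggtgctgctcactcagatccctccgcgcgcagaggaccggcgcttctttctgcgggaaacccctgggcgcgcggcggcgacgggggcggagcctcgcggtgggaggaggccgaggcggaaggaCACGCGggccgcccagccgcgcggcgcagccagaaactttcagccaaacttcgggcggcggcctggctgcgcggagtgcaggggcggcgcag
Dll1, chr17:15376883-15377182, minus strand: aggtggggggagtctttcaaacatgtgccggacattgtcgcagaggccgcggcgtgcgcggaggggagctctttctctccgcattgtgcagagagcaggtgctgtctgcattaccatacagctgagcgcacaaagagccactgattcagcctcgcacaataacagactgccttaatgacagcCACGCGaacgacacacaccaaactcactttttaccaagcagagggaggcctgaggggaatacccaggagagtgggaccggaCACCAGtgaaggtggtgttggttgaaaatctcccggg
Jag2, chr12:112929446-112929745, minus strand: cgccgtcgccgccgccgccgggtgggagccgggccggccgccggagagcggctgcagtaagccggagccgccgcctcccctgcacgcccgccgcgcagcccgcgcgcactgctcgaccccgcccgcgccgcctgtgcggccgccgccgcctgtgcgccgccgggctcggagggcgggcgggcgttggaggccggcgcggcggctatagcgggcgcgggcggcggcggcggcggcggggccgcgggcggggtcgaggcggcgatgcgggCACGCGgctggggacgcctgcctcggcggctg
The *Notch1* window held 3 N boxes, of which 2 overlap on opposite strands, and had a GC content of 68.3%. The *Notch2* window held 1 motif of each kind at 73.0% GC, and the *Jag2* window held 1 class C site at 86.0% GC. *Dll1* had a window at each of 2 annotated starts. The printed one held 1 class C site and 1 N box, and the one not printed held none of the motifs.

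The question put to the counts was how the expression of these genes differed between KO and WT progenitors. Values are in CPM, the counts of a library scaled to a common total with TMM factors, and fold changes are on the log2 scale as KO over WT. The p-values came from the quasi-likelihood test of edgeR and were adjusted by Benjamini-Hochberg over all tested genes. By that test edgeR called 0 of the 10 members at an adjusted p under 0.05, and 0% of all 16353 genes. At an unadjusted p under 0.05 there were 6 members, beside 10.4% of all genes. *Notch1*, *Notch2*, *Dll1* and *Hey1* were lower in KO, beside 3.97% of all genes called in that direction, and *Hes1* and *Jag2* were higher, beside 6.42%. The alternative tool, DESeq2, called 4 members at an adjusted p under 0.05. *Notch1*, *Notch2* and *Dll1* were lower by that test, where 0.648% of the 14353 genes with an adjusted p were called lower, and *Hes1* was higher, where 4.22% were called higher. The median log2 fold change was -0.32 over the members and -0.02 over all tested genes. In bulk RNA, fewer cells of a type and less RNA per cell cannot be told apart.

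**Figure D1:**
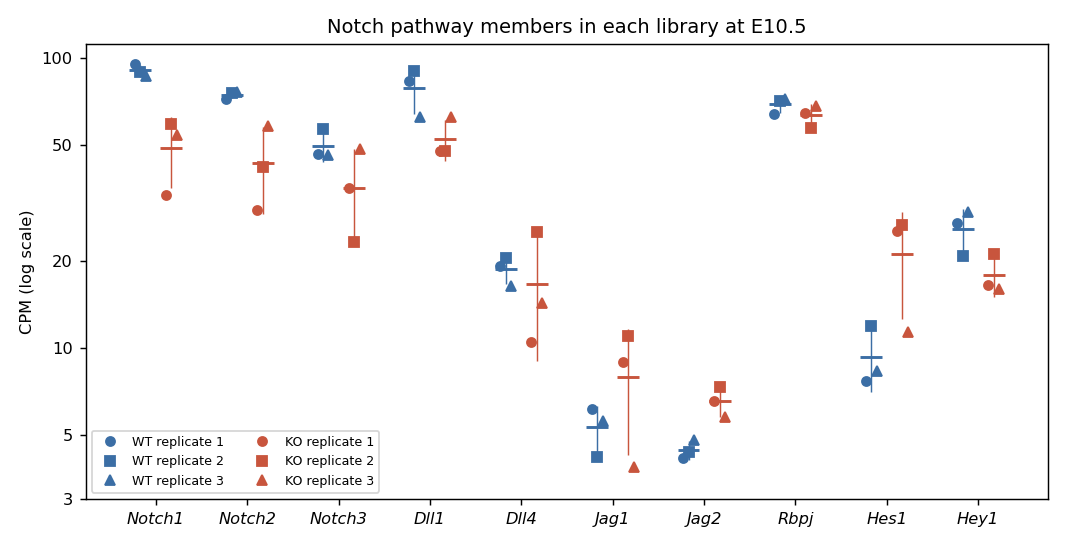
CPM of the 10 members in each library on a log axis, WT in blue and KO in red, with the symbol giving the replicate, horizontal lines the mean of 3 libraries and vertical lines 1 SD. *Notch1* and *Notch2* have every KO library below every WT library, *Jag2* has every KO library above, and the other members overlap.

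Of the receptors, *Notch1* and *Notch2* had every KO library below every WT library, and *Notch3* did not. *Notch1*, the founding receptor of the family (ENSMUSG00000026923.16), was at 95.5, 89.8 and 87.2 CPM in WT replicates 1 to 3 and at 33.7, 59.5 and 54.4 CPM in KO replicates 1 to 3. The KO libraries all lay below the WT libraries, and KO replicate 1 was lowest. The means of the genotypes were 90.8 ± 4.28 and 49.2 ± 13.6 CPM (SD, n = 3), a fitted log2 fold change of -0.89 (SE 0.20, 95% interval -1.36 to -0.42). The p was 0.00281 in edgeR before adjustment and 0.151 after it, and the adjusted p was 0.00094 in DESeq2. Without KO replicate 1 the log2 fold change was -0.66. The exons of *Notch1* share 7.5% of their bases with 0610009E02Rik on the opposite strand, which was at 0.109 to 0.534 CPM.

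*Notch2*, a receptor known to be expressed with *Notch1* in the pancreatic epithelium (ENSMUSG00000027878.12), was at 72.6, 75.8 and 76.6 CPM in WT and at 29.9, 42.0 and 58.6 CPM in KO. The WT libraries lay within a narrow band, and the KO libraries were spread widely below it. The means were 75.0 ± 2.12 and 43.5 ± 14.4 CPM (SD, n = 3), with a log2 fold change of -0.79 (SE 0.22, 95% interval -1.31 to -0.26). The edgeR p was 0.00911 before adjustment and 0.227 after it, and the DESeq2 adjusted p was 0.0144. Over all tested genes, 7.99% had every KO library below every WT library, as *Notch1* and *Notch2* did.

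*Notch3*, a receptor best known from the cells around blood vessels (ENSMUSG00000038146.9), was at 46.7, 56.9 and 46.2 CPM in WT and at 35.5, 23.1 and 48.6 CPM in KO. The genotypes overlapped, because KO replicate 3 lay among the WT libraries. The log2 fold change was -0.48 (SE 0.26, 95% interval -1.09 to 0.12), with an edgeR p of 0.102 and an adjusted p of 0.601. Without KO replicate 3 the log2 fold change was -0.73 with an unadjusted edgeR p of 0.0145, and without KO replicate 2 it was -0.23 with a p of 0.217. *Notch3* was lowest in KO replicate 2, where markers of mesenchyme, the connective tissue around the epithelium, were also lowest. The summed level of 12 such markers was 51.6 CPM in that library and 195 to 1333 CPM in the others. WT replicate 2, at 195 CPM of these markers, had the highest *Notch3* of all libraries. KO replicate 1, at 1333 CPM of them, had *Notch3* below every WT library. The part of mesenchymal RNA in the *Notch3* values was not tested. *Notch4*, an endothelial receptor outside the 10 genes, was at 1.37, 2.29 and 1.02 CPM in WT and at 2.50, 1.14 and 1.52 CPM in KO, so that its groups overlapped.

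Levels of different genes were compared per kilobase of transcript. Summed over the 4 receptors, WT libraries had 22.4 to 24.1 CPM per kb and KO libraries 11.2, 13.3 and 17.6, with no overlap. The shares of the receptors within that sum did overlap. *Notch1* made up 39.2 to 43.8% of the sum in WT and 31.7, 47.0 and 32.6% in KO. *Notch2* made up 29.9 to 32.6% in WT and 25.4, 30.0 and 31.7% in KO.

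**Figure D2:**
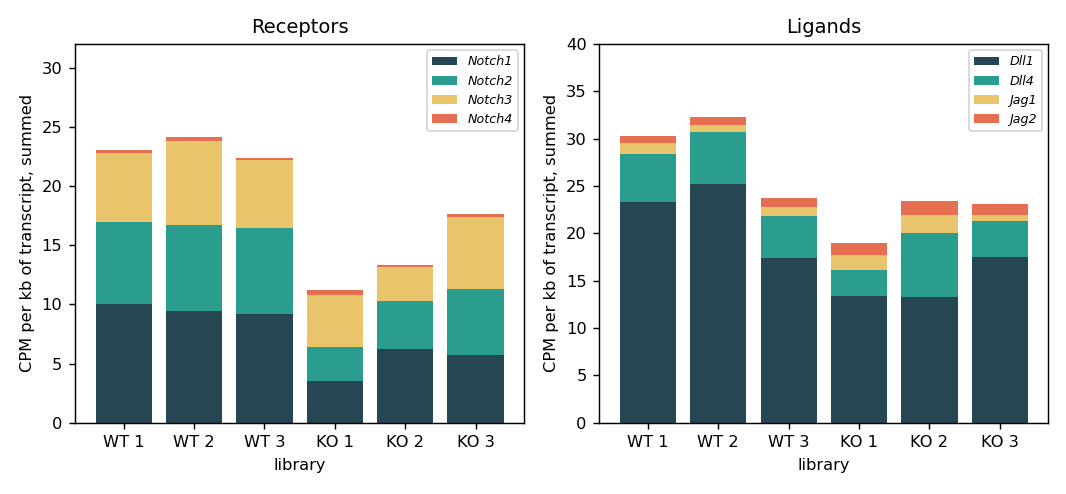
Summed CPM per kb of transcript in each library, split by receptor (left) and by ligand (right), without replicates inside a bar and without the GC offset described below. The receptor sums of the KO libraries, 11.2 to 17.6, lie below those of the WT libraries, 22.4 to 24.1, and *Dll1* makes up most of every ligand bar.

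Among the ligands, *Dll1* had a lower mean in KO and *Jag2* a higher one, both at an unadjusted p under 0.05, and *Dll4* and *Jag1* did not pass that threshold. *Dll1*, a ligand expressed in early pancreatic cells (ENSMUSG00000014773.14), was at 83.5, 90.4 and 62.5 CPM in WT and at 47.8, 47.7 and 62.6 CPM in KO. The groups overlapped only because KO replicate 3 was level with WT replicate 3. The means were 78.8 ± 14.6 and 52.7 ± 8.56 CPM (SD, n = 3), with a log2 fold change of -0.58 (SE 0.17, 95% interval -0.98 to -0.18). The edgeR p was 0.0113 before adjustment and 0.248 after it, and the DESeq2 adjusted p was 0.0487. The exons of *Dll1* share 20.5% of their bases with A930024N18Rik on the opposite strand. That gene was not found among the counted genes, so its own level is not known. The strand setting of the counting is not given in the sources used here, so reads of the pair cannot be told apart.

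*Dll4*, a ligand known from arterial endothelium (ENSMUSG00000027314.7), was at 19.2, 20.4 and 16.4 CPM in WT and at 10.4, 25.2 and 14.3 CPM in KO. The KO libraries lay on both sides of the WT libraries, with replicate 2 highest of all and replicate 1 lowest of all. The log2 fold change was -0.17 (SE 0.31, 95% interval -0.90 to 0.57) with an edgeR p of 0.609, and it was 0.10 without KO replicate 1. Without KO replicate 2 it was -0.58 with an unadjusted edgeR p of 0.0247. The summed level of 14 endothelial markers was 45.0, 43.3 and 30.0 CPM in WT and 61.4, 12.9 and 41.0 CPM in KO. This sum was lowest in KO replicate 2, where *Dll4* was highest, and highest in KO replicate 1, where *Dll4* was lowest. Among the WT libraries, both were lowest in replicate 3. Single markers weighed heavily in the sum. *Egfl7* was at 10.9 CPM in KO replicate 2, *Flt1* at 24.5 CPM in WT replicate 1 and *Kdr* at 11.3 CPM in KO replicate 1. The part of endothelial RNA in the *Dll4* values was not tested.

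*Jag1*, which encodes a ligand expressed in the pancreatic epithelium (ENSMUSG00000027276.8), was at 6.13, 4.19 and 5.58 CPM in WT and at 8.95, 10.9 and 3.86 CPM in KO. KO replicates 1 and 2 were above all WT libraries and KO replicate 3 was below them. The log2 fold change was 0.58 (SE 0.38, 95% interval -0.32 to 1.48) with an edgeR p of 0.174 and an adjusted p of 0.706. Without KO replicate 3 it was 0.94 with an unadjusted edgeR p of 0.00902, without KO replicate 2 it was 0.30 with a p of 0.469, and with the GC offset described below it was 0.25. The counts behind these values were 71 to 240 a library.

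*Jag2*, the other Jagged ligand (ENSMUSG00000002799.7), was at 4.15, 4.36 and 4.81 CPM in WT and at 6.52, 7.29 and 5.77 CPM in KO. Every KO library lay above every WT library, as in 8.36% of all tested genes. The means were 4.44 ± 0.337 and 6.53 ± 0.762 CPM (SD, n = 3), with a log2 fold change of 0.56 (SE 0.20, 95% interval 0.08 to 1.03). The edgeR p was 0.0274 before adjustment and 0.373 after it, and the DESeq2 adjusted p was 0.319. *Jag2* also had the most GC-rich stretch of the members, and with an offset for that property in the fit its log2 fold change was 0.06 with an edgeR p of 0.770.

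That property, the highest GC content of any 200 bases of the transcript, was followed because genes with such stretches ran higher in the KO libraries as a whole. Genes with a stretch of 75% GC or more had a median log2 fold change of 0.14 and the remaining genes one of -0.04. Such stretches occurred in 7 of the 10 members and in 22.9% of the tested genes with a value. *Jag2* was at 88% and *Jag1* at 80.5%, *Hes1* and *Hey1* both at 78.5%, *Notch2* at 77.5%, *Notch1* at 76.5% and *Notch3* at 76%, whereas *Dll4*, *Dll1* and *Rbpj* were at 70%, 68% and 61.5%. *Notch1*, *Notch2*, *Notch3* and *Hey1* therefore had a GC-rich stretch and a lower mean in KO. Of the 78 genes with a value that DESeq2 called lower, 11 had such a stretch, and 2 of these were *Notch1* and *Notch2*. With the offset, the log2 fold changes were -0.97 for *Notch1* and -0.93 for *Notch2*, -0.55 for *Dll1*, 0.25 for *Jag1*, 0.99 for *Hes1* and -0.74 for *Hey1*. The part of the GC-rich stretch in the values as measured was not otherwise tested.

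Per kilobase, *Dll1* made up 73.5 to 78.2% of the 4 ligands in WT and 70.2, 56.9 and 75.6% in KO. The Jagged genes together made up 4.95 to 8.15% in WT and 15.1, 14.4 and 7.87% in KO, with KO replicate 3 inside the WT range and the other KO libraries above it. These shares were taken without the GC offset, with which the log2 fold changes were 0.25 for *Jag1* and 0.06 for *Jag2*.

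*Rbpj*, which encodes the DNA-binding factor through which all Notch receptors act (ENSMUSG00000039191.13), was at 64.3, 71.4 and 72.2 CPM in WT and at 64.8, 57.3 and 68.7 CPM in KO. The groups overlapped and all 6 libraries lay close together. The log2 fold change was -0.12 (SE 0.10, 95% interval -0.37 to 0.12) with an edgeR p of 0.267, the narrowest interval among the members. *Rbpjl*, its relative in acinar cells of the pancreas, was at 42.7, 24.6 and 36.0 CPM in WT and at 22.5, 46.9 and 16.9 CPM in KO, and these groups overlapped as well.

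The effectors differed from each other in sign. *Hes1* (ENSMUSG00000022528.9), which encodes the main Notch-driven repressor in pancreatic progenitors, was at 7.68, 11.8 and 8.30 CPM in WT and at 25.2, 26.6 and 11.3 CPM in KO. KO replicates 1 and 2 were far above the WT libraries, and KO replicate 3 lay just under WT replicate 2. The means were 9.28 ± 2.24 and 21.1 ± 8.46 CPM (SD, n = 3), a 2.27-fold ratio, with a fitted log2 fold change of 1.18 (SE 0.35, 95% interval 0.37 to 1.99). The edgeR p was 0.0104 before adjustment and 0.239 after it, and the DESeq2 adjusted p was 0.0101. Without KO replicate 3 the log2 fold change was 1.52.

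*Hey1* (ENSMUSG00000040289.9), which encodes a repressor of the Hey family, was at 26.9, 20.8 and 29.4 CPM in WT and at 16.4, 21.1 and 16.0 CPM in KO. The overlap came from KO replicate 2 and WT replicate 2, which were nearly level. The means were 25.7 ± 4.45 and 17.9 ± 2.85 CPM (SD, n = 3), with a log2 fold change of -0.53 (SE 0.19, 95% interval -0.97 to -0.09). The edgeR p was 0.0253 before adjustment and 0.360 after it, and the DESeq2 adjusted p was 0.180.

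**Figure D3:**
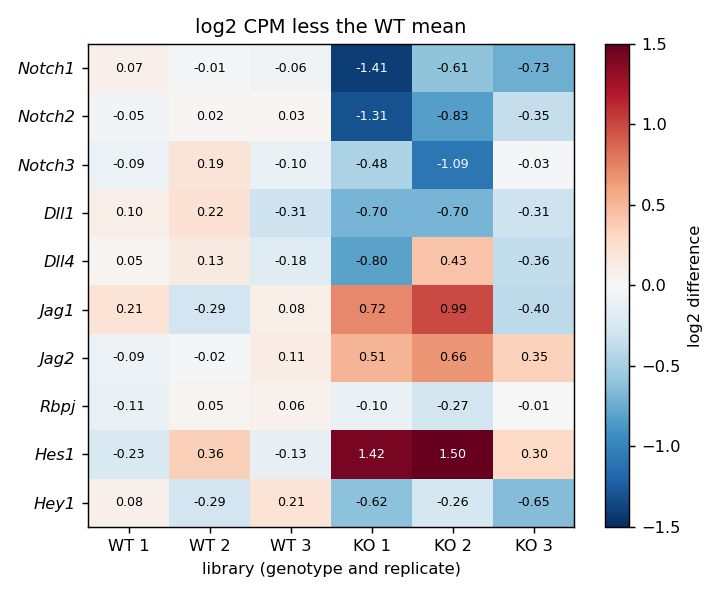
Each cell gives the log2 CPM (with 0.5 added) of a member in a library less its mean over the 3 WT libraries, red above and blue below. KO replicate 3 is the palest KO column for most genes and KO replicates 1 and 2 hold the strongest colours.

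The KO libraries were not equally far from WT. KO replicate 3 was the KO library nearest to the WT mean for 8 of the 10 members, KO replicate 2 for the other two, and KO replicate 1 for 0. The library farthest from the WT mean was KO replicate 2 for 6 members, KO replicate 1 for 3 and KO replicate 3 for 1. In KO replicate 3, *Notch1*, *Notch2*, *Dll4*, *Jag1* and *Hey1* lay below the WT range and *Jag2* above it, whereas *Notch3*, *Dll1*, *Rbpj* and *Hes1* lay inside it.

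In WT, the order of mean levels per kilobase ran from *Dll1* at 22.0 ± 4.06 CPM per kb (SD, n = 3) through *Rbpj* at 12.6 and *Hey1* at 10.6 to *Notch1* at 9.57. Below these came *Notch2* at 7.14, *Hes1* at 6.32, *Notch3* at 6.23, *Dll4* at 4.98, *Jag1* at 0.944 and *Jag2* at 0.869 CPM per kb. Libraries of the neighbours *Rbpj* and *Hey1* overlapped, as did those of *Hey1* and *Notch1*, *Notch2* and *Hes1*, *Hes1* and *Notch3*, and *Jag1* and *Jag2*. By transcript length, *Dll1* stood above all others and *Notch1* above *Notch2* in every WT library. In KO, *Hes1* was second at 14.3 ± 5.76 CPM per kb, behind *Dll1* at 14.7 ± 2.39. The order depended on the length used, since over all annotated exons *Rbpj* ranked 6 in WT. By that length *Notch2* ranked 3 at a WT mean of 6.95 CPM per kb, above *Notch1*, which ranked 4 at 6.38. The receptor and ligand shares given above likewise rest on transcript length.

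The rest of the pathway was read from a list of 60 further genes, ordered by role, of which 54 were tested. Among these, 28 had a positive and 26 a negative log2 fold change, with a median of 0.02. edgeR called 0 of them at an adjusted p under 0.05, and 11 (20.4%) had an unadjusted p under 0.05, 7 higher and 4 lower in KO, beside 10.4% of all tested genes. A GC-rich stretch was present in 30 of the 60 listed genes and in 8 of the 13 corepressors, beside 22.9% of the tested genes with a value. The 10.4% is therefore not a share over genes of like GC content. With the GC offset, 9 of the other pathway genes had an unadjusted edgeR p under 0.05. DESeq2 called 0 lower and 5 higher, *Ctbp1*, *Spen*, *Tle1*, *Dll3* and *Rfng*. The groups did not overlap for 8 genes, of which 5 were higher and 3 lower, beside 8.36% and 7.99% of all tested genes.

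Of the 13 corepressors tested, 5 were among those 11, 4 higher and 1 lower. Corepressors silence genes either with RBPJ when Notch is off or as partners of Hes proteins. *Ctbp1* was at 39.8, 86.6 and 37.8 CPM in WT and at 244, 192 and 144 CPM in KO, without overlap. Its log2 fold change was 1.82 (SE 0.35), with an edgeR adjusted p of 0.132, the smallest of the list, and a DESeq2 adjusted p of 0.0039. *Spen*, which encodes an RBPJ-binding corepressor, was at 9.33, 10.3 and 8.06 CPM in WT and at 25.2, 19.8 and 13.0 CPM in KO (log2 fold change 1.07, DESeq2 adjusted p = 0.00298). *Tle1*, a Groucho-type partner of Hes proteins, was at 24.5, 45.9 and 22.8 CPM in WT and at 79.1, 60.7 and 59.9 CPM in KO (log2 fold change 1.10, DESeq2 adjusted p = 0.00118). In each of these 3 genes the lowest KO library exceeded the highest WT library. *Kdm5a*, a histone demethylase, was at 198, 190 and 180 CPM in WT and at 153, 156 and 182 CPM in KO, with a log2 fold change of -0.21 and an edgeR p of 0.0487 before adjustment and 0.477 after it. That p was under 0.05 in 1 of 13 alternatives, the fit without KO replicate 3, and ranged up to 0.163. *Ncor1*, named here after its value was seen, had a log2 fold change of 0.47 with an edgeR p of 0.0428 before adjustment and 0.450 after it. *Ctbp1*, *Spen* and *Tle1* all had a GC-rich stretch, of 78%, 80.5% and 79.5%, and with the GC offset their log2 fold changes were 1.67, 0.76 and 0.85.

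*Dll3*, a ligand that acts within the cell and is expressed in endocrine precursors, was at 0.801, 3.07 and 1.12 CPM in WT and at 16.3, 11.5 and 2.18 CPM in KO. KO replicates 1 and 2 were far above WT, and KO replicate 3 lay within it. The log2 fold change was 2.60 (SE 0.79) with an edgeR adjusted p of 0.264 and a DESeq2 adjusted p of 0.0029. *Rfng*, which encodes a Fringe enzyme that extends sugars on Notch receptors, was at 23.1, 28.4 and 19.1 CPM in WT and at 37.4, 40.5 and 30.5 CPM in KO (log2 fold change 0.62, DESeq2 adjusted p = 0.0337). *Pofut1* encodes the enzyme that adds the sugar on which Fringe acts. It was at 52.5, 54.1 and 53.7 CPM in WT and at 38.8, 37.5 and 50.3 CPM in KO with a log2 fold change of -0.34 and an edgeR p of 0.0401 before adjustment and 0.439 after it. In 7 of 13 alternatives the unadjusted p was under 0.05, and of the fits that leave out 1 library this held only without KO replicate 3.

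*Mib1*, which encodes the ubiquitin ligase that lets a ligand pull on its receptor, was at 9.90, 10.8 and 12.5 CPM in WT and at 7.98, 8.09 and 6.26 CPM in KO. The groups did not overlap, and the log2 fold change was -0.57 (SE 0.19) with an edgeR p of 0.0187 before adjustment and 0.318 after it. *Crebbp*, a coactivator of the RBPJ complex that acetylates histones, was at 35.5, 30.1 and 30.9 CPM in WT and at 25.1, 23.0 and 22.5 CPM in KO, again without overlap. Its log2 fold change was -0.45 with an edgeR p of 0.00994 before adjustment and 0.234 after it. Both had a GC-rich stretch, of 85.5% and 90%, and a lower mean in KO, and with the GC offset the log2 fold changes were -1.05 for *Mib1* and -0.94 for *Crebbp*. Without WT replicate 2, WT replicate 3 or KO replicate 3, the unadjusted edgeR p of *Mib1* was 0.0528, 0.0871 or 0.0742. *Dtx4*, which acts on receptor turnover, was at 65.2, 64.9 and 53.1 CPM in WT and at 78.4, 71.6 and 90.9 CPM in KO. Its log2 fold change of 0.40 was 0.19 with the GC offset, at an edgeR p of 0.150.

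Of the 9 genes that cut Notch receptors, *Furin*, *Adam10*, *Adam17* and the subunits of γ-secretase, 0 had an unadjusted edgeR p under 0.05. The Hes and Hey genes outside the members gave no call either. *Hes2*, *Hes3*, *Hes5* and *Hes7* had 0 counts in all 6 libraries, and *Hes6*, *Hey2* and *Heyl* were tested without a p under 0.05.

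**Figure D4:**
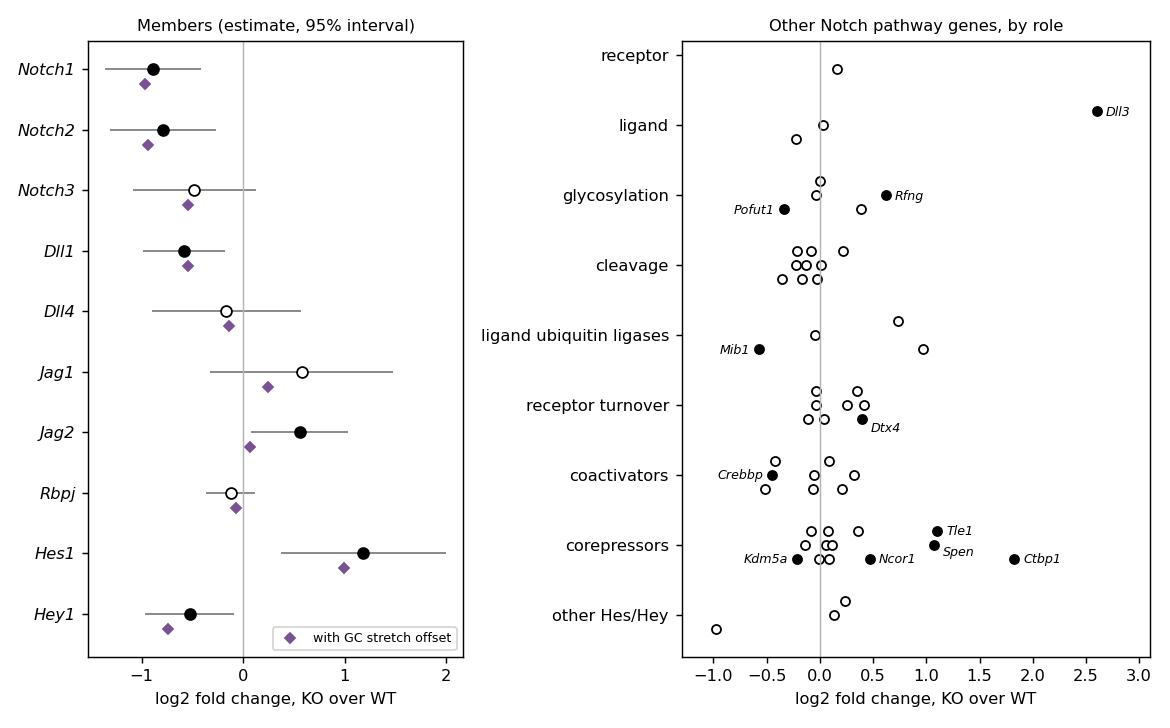
Log2 fold change, KO over WT, of the members with 95% intervals (left) and of the 54 other tested pathway genes by role (right), with filled circles at an unadjusted edgeR p under 0.05 and purple diamonds for the fit with the GC offset. *Notch1* and *Notch2* lie to the left of 0 and *Hes1* to the right in both fits, *Jag2* moves to near 0 with the offset, and *Ctbp1* and *Dll3* lie farthest to the right.

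The genes that Notch signalling is known to act on or beside in the pancreas overlapped between genotypes. *Sox9*, a progenitor factor, was at 259, 213 and 178 CPM in WT and at 193, 216 and 184 CPM in KO (log2 fold change -0.13, 95% interval -0.46 to 0.20). *Neurog3*, which HES1 is known to repress, was at 17.7, 27.9 and 22.4 CPM in WT and at 25.4, 39.7 and 13.4 CPM in KO. Its log2 fold change was 0.21 (95% interval -0.67 to 1.08). KO replicate 2, with the highest *Hes1*, had the highest *Neurog3*, and it was also highest for *Ptf1a*, *Nkx6-1* and *Pdx1*. KO replicate 1, with *Hes1* at 25.2 CPM, had *Neurog3* inside the WT range. The relation of *Hes1* to *Neurog3* was not tested. *Ptf1a*, whose protein binds RBPJ or RBPJL in its own complex, was at 2.22, 2.68 and 1.80 CPM in WT and at 2.72, 4.96 and 1.52 CPM in KO. *Nkx6-1*, a progenitor and beta cell factor, was at 1.93, 2.35 and 1.36 CPM in WT and at 3.88, 4.73 and 0.762 CPM in KO. *Pdx1*, the gene whose promoter drives the Cre, was at 106, 90.6 and 92.0 CPM in WT and at 82.3, 108 and 73.1 CPM in KO.

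Markers of pancreatic progenitors were present in every library, and markers of other cell types were found beside them. Of 14 progenitor markers, led by *Cdh1*, 13 were at 1 CPM or more in every library, and their sum was 1793 to 2213 CPM in WT and 1925 to 2462 CPM in KO. Of these 14, 3 had an unadjusted edgeR p under 0.05, beside 10.4% of all tested genes. They were *Gata4*, *Gata6* and *Mnx1*, all with a higher mean in KO, at log2 fold changes of 0.63, 1.33 and 1.21. Their DESeq2 adjusted p-values were 0.00092, 3.5e-05 and 0.101, and only *Mnx1* overlapped between genotypes. All had a GC-rich stretch, of 77%, 79% and 81.5%, and with the GC offset the log2 fold changes were 0.53, 1.11 and 0.82. Liver markers, led by *Afp*, summed to 1967 to 3348 CPM in WT and 1867 to 3334 CPM in KO. *Afp* itself was at 102 CPM in KO replicate 2 and at 336 to 1347 CPM in the other libraries. *Dlk1*, which is in the liver list and also among the other pathway genes, was at 917 CPM in KO replicate 2. Neural markers, led by *Pax6*, summed to 77.0 to 144 CPM in WT and 85.5 to 176 CPM in KO. Blood markers, led by *Hbb-y*, ranged from 2.59 to 13458 CPM in WT and from 1.03 to 5312 CPM in KO. Mesenchymal markers, led by *Col3a1*, ranged from 195 to 1154 CPM in WT and from 51.6 to 1333 CPM in KO. Endothelial markers, led by *Flt1*, summed to 30.0 to 45.0 CPM in WT and 12.9 to 61.4 CPM in KO, with 8 of 14 at 0 in KO replicate 2. *Cdh5*, which defines endothelium, was at 0.708 CPM or less in every library, *Pecam1* at 0.34 to 2.35 CPM, and *Kdr* at 0 to 1.23 CPM in all libraries but KO replicate 1, where it was at 11.3. The mesenchymal and endothelial sums were both lowest in KO replicate 2 and both highest in KO replicate 1. *Notch1* and *Notch2* were lower in every KO library than in any WT library. The part of other cell types, blood and liver included, in the values of the members was not tested.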

How the data were processed

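Messenger RNA of sorted *Pdx1-Cre*-labelled cells was compared in 3 WT and 3 KO libraries, with groups and replicate numbers taken from the labels. SMART-seq v4 cDNA was turned into Nextera XT libraries. The authors aligned reads to GRCm39 with STAR, used GenomicAlignments to obtain counts per gene and deposited these as whole numbers, not normalized. The annotation and the strand setting are not given in the sources used here. Gene symbols were found for 94.0% of identifiers.

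The deposited counts were filtered (filterByExpr), scaled by TMM and fitted on genotype alone by the quasi-likelihood functions of edgeR 4.0.16 (R 4.3.3) with default settings. The p-values were adjusted over all 16353 tested genes by Benjamini-Hochberg. Intervals used 7.26 degrees of freedom. DESeq2 1.42.0 was run on the 30187 genes with at least 1 count as an alternative. With 3 libraries against 3, an exact permutation test of 1 gene cannot give a p below 0.1. Replicates of a genotype were not duplicates, since their chi-square per degree of freedom was 28.0 to 45.6 over genes. The sources do not state that replicate numbers pair the libraries, so the main fit did not use them. The scripts were tested on simulated data.

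Transcript lengths, 3′UTRs and the most GC-rich 200 bases came from GENCODE M21 (GRCm38), so gene coordinates are not given. The level per kilobase is CPM divided by the length of the longest protein-coding transcript. The members, the list of other pathway genes and the marker lists were chosen with earlier results of these data known. The text names all members. It also names other pathway genes with an unadjusted p under 0.05 (up to 6 in each direction), *Notch4*, 6 pancreatic genes, *Pecam1*, *Cdh5*, *Kdr* and the leading gene of each marker list. The leading gene is the one with the highest CPM in any library. *Dlk1* is named because it is in both the liver list and the pathway list.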

Additional observations from a re-analysis of the deposited data

How the results depend on the processing

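Of the 10 members, *Notch1*, *Notch2*, *Dll1* and *Hes1* kept their direction and an unadjusted p under 0.05 in all 13 alternatives tried. The number of genes with an adjusted p under 0.05, 0 as reported, was 264 without a filter on low counts (1 member, *Notch1*), 699 with DESeq2 (4 members) and 0 to 217 when 1 library was left out, with 217 without WT replicate 2. Leaving out 1 library gave 3897 to 4875 genes (2674 as reported) and 4 to 7 members (3 as reported) whose libraries did not overlap, since fewer libraries have to be separated. *Dll4* ran from -0.58 to 0.10 (positive without KO replicate 1), *Notch4* from -0.21 to 0.56 (-0.034 with the GC offset, negative without WT replicate 3 or KO replicate 1), *Sox9* from -0.22 to 0.016 (positive without WT replicate 1), *Ptf1a* from -0.038 to 0.81 and *Neurog3* from -0.19 to 0.55 (both negative without KO replicate 2), *Rbpjl* from -0.78 to 0.041 and *Pdx1* from -0.29 to 0.014 (both positive without KO replicate 3). The causes were not tested. The correlations of same-numbered WT and KO libraries were -0.21, 0.29 and 0.08, and those of differently numbered ones ran from -0.32 to 0.35. So few values cannot show whether the numbers pair the libraries, which the sources do not state. With the replicate block, 0 genes had an adjusted p under 0.05, and 4 members (6 as reported) and 9 other pathway genes (11 as reported) had an unadjusted p under 0.05. The members lost were *Jag2*, with an unadjusted p of 0.0576, and *Hey1*, with 0.0622. Of the 6 fits that leave out 1 library, *Jag2* was under 0.05 without WT replicate 3 or KO replicate 3 and *Hey1* without WT replicate 2 or KO replicate 2. With the first digit of the library code as a covariate, 5 members and 9 other pathway genes had an unadjusted p under 0.05, and *Jag2* was at 0.0579. Among the members, counts were lowest for *Jag1* and *Jag2*, at 71 to 240 a library.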
